A study of Homo sapiens with 4 samples.

Results

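The unfolded protein response and the integrated stress response were followed through 35 named genes. They were chosen by symbol for their roles, with earlier results of these data known. Each matched 1 of the 62893 Ensembl identifiers in the count tables. Of the 35, 34 had enough reads to be compared, and CHAC1 had no read in any table. The RNA came from cultured Hep-G2 cells, a human line derived from a liver tumour, at passage 21, and its libraries followed the usual Illumina procedure. The cells carried either TRCN0000246247, an shRNA against the RNA demethylase gene FTO, or SHC002, the scramble control. Each group has 2 count tables, of 20220271 and 20706611 reads for shFTO and 20047409 and 20474554 reads for scramble. The knockdown rests on 1 shRNA in 1 cell line, and the labels do not say whether the tables of a group came from separate cultures or from clones. Tables of the same group differed by no more than sampling noise (chi-square test over 13674 genes for shFTO, p = 0.142, and over 13359 genes for scramble, p = 0.0648), and were counted as 1 sample. There is therefore 1 sample per group, no test of the conditions and no culture-to-culture error, and all intervals below cover counting error only.

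The endoplasmic reticulum (ER) folds secreted and membrane proteins, and 3 sensors in its membrane report unfolded protein. ATF6 is cut to release a transcription factor, ERN1 (IRE1) splices the mRNA of the factor XBP1, and EIF2AK3 (PERK) phosphorylates the initiation factor eIF2. ATF6 and spliced XBP1 raise chaperones and degradation factors, whereas eIF2 phosphorylation, which EIF2AK4 (GCN2) also performs when amino acids are short, favours translation of ATF4 and its stress and amino acid genes. Hepatocytes secrete much plasma protein and hold large amounts of ER chaperones. ATF4 and ATF6 activity, XBP1 splicing and eIF2 phosphorylation cannot be read from counts per gene and were not tested.

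FTO itself had 116 and 128 reads in the shFTO tables, against 594 and 550 in the scramble tables. Its pooled level was 5.62 counts per 1000000 reads (CPM, with library sizes adjusted by edgeR's TMM factors) in shFTO and 29.9 CPM in scramble, 5.32-fold lower in shFTO (95% counting interval 4.63 to 6.13). Hepatocyte markers were present in both groups, and all 10 were lower in shFTO, with summed levels of 17394 and 17329 CPM in shFTO and 40743 and 40667 CPM in scramble. Their part in the results below was not tested. The summed fibroblast markers held 6.44 and 7.06 CPM in shFTO and 23.1 and 23.7 CPM in scramble, with COL3A1, LUM, DCN and THY1 at 0 in every table. The lower sum came from PDGFRB (3.59 and 3.64 CPM in shFTO, 23.0 and 23.5 CPM in scramble), whereas COL1A1 was higher, with 61 and 74 reads in shFTO against 2 and 3 in scramble. Endothelial markers summed to 3.27 and 3.14 CPM in shFTO and 3.12 and 3.88 CPM in scramble, with PECAM1 and KDR at 0. Among immune markers PTPRC and CD3E were at 0, and nearly all of the sum (235 and 235 CPM in shFTO, 3004 and 3010 CPM in scramble) was LYZ. In bulk RNA, fewer cells of a type and less RNA per cell cannot be told apart.

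Most transcripts for ER folding were lower in shFTO cells, while ATF4 and most of its listed branch stood near their scramble levels. The stress cofactor NUPR1 was 4.38-fold higher. Of the 34 measured genes, 7 (20.6%) were at least 1.5-fold lower, against 13.4% of the 13767 genes with enough reads, and 1 was at least 1.5-fold higher, against 11.4%. With plain library size 2 remained past 1.5-fold on the lower side, HERPUD1 and SYVN1. With length and expression trends removed there were 3, HERPUD1, SYVN1 and PDIA5. Here and below, shares of all genes past a fold are those with TMM factors, so counts in other settings have no matching share. At 2-fold with TMM factors the numbers were 0 lower, against 6.19% of all genes, and 1 higher, against 5.18%. Most shifts were small: the median log2 ratio was -0.19, against 0.0091 over all genes, and 25 of 34 genes lay below a ratio of 1 (22 with upper quartile scaling and 18 with plain library size). edgeR's quasi-likelihood test, which here compares the libraries and not the conditions, called 4 of the 34 higher and 19 (55.9%) lower, with 33.2% and 33.4% of all genes called higher and lower. With plain library size the median over all genes moved up by 0.17. The edgeR split then became 14 higher and 15 lower, with 9751 of all 13767 genes called in either direction. Set against the median of all genes, 26 of the 34 lay below it. Scaling moves that median and every ratio together, so this count has to be the same under each of the 4 scalings.

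The folding genes also made up a smaller share of each shFTO library. The 17 ER folding genes took 1.41% of reads in each shFTO table, against 1.75% in each scramble table. For each read of the 8 ATF4 branch genes there were 19.1 and 19.1 reads of the ER folding genes in the shFTO tables, against 30.3 and 29.9 in the scramble tables. Without NUPR1 the numbers were 21.9 and 22.1 in shFTO against 31.4 and 31.0 in scramble, 70.6% of the scramble ratio. These within-table ratios do not depend on how the libraries are scaled, but they follow the most abundant genes. ATF4 held 16147 of the 30125 branch reads in shFTO. Among the folding genes 7 reached a mean of 1000 CPM, and the 91 genes of that abundance in the whole table had a median log2 ratio of -0.37. The median log2 ratio was -0.45 over 17 ER folding genes and 0.046 over 7 measured ATF4 branch genes, a difference of -0.49, or -0.48 with NUPR1 left out. Outside these lists the medians lay closer together, at -0.35 over 18 other ER folding genes and -0.26 over 27 other ATF4 targets. Of the 17, 16 lay below scramble (14 with upper quartile scaling and 12 with plain library size), against 6756 of all 13767 genes. By at least 1.5-fold 4 of them (23.5%, against 13.4% of all genes) were lower, and 0 with plain library size.

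**Figure D1:**
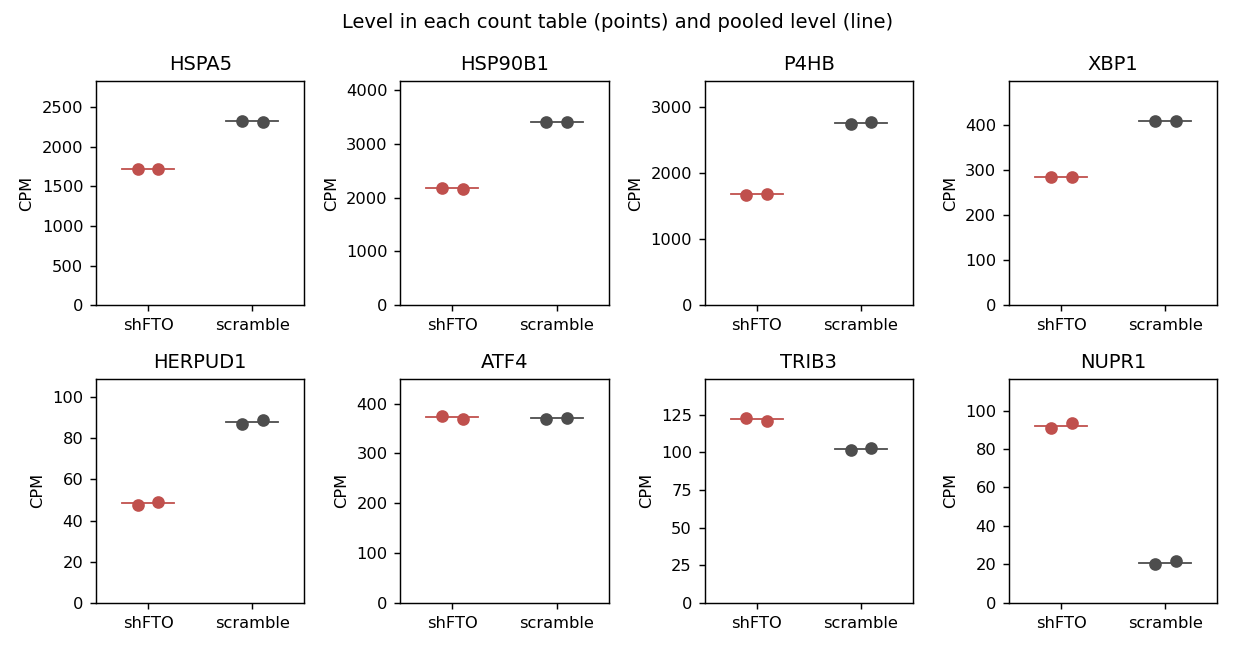
Level in CPM (vertical axes, from 0) of 8 genes in the 2 shFTO tables (left, red points) and the 2 scramble tables (right, grey points), with the pooled level of each group as a line. HSPA5, HSP90B1, P4HB, XBP1 and HERPUD1 are lower in shFTO, ATF4 overlaps between groups, TRIB3 is slightly higher and NUPR1 reaches 92.1 CPM in shFTO against 21.0 CPM in scramble.

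The large chaperones were lower under all 4 scalings. HSPA5 (BiP, ENSG00000044574), the HSP70 of the ER lumen that also holds the sensors inactive, had 1719 and 1715 CPM in shFTO against 2329 and 2318 CPM in scramble. Its groups did not overlap, and the fold was 1.35 lower in shFTO (1.34 to 1.37). HSP90B1 (GRP94, ENSG00000166598), the ER member of the HSP90 family, had 2182 and 2170 CPM in shFTO against 3413 and 3415 CPM in scramble. It was 1.57-fold lower (1.56 to 1.58). HYOU1 (GRP170), a large HSP70 relative that acts as nucleotide exchange factor of HSPA5, had 509 and 512 CPM in shFTO against 751 and 752 CPM in scramble, 1.47-fold lower (1.45 to 1.498).

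The 5 protein disulfide isomerases, which form and rearrange disulfide bonds, lay between 1.36-fold and 1.64-fold lower. P4HB (PDI, ENSG00000185624), also a subunit of prolyl 4-hydroxylase, had 1676 and 1688 CPM in shFTO against 2745 and 2777 CPM in scramble, 1.64-fold lower (1.63 to 1.66). PDIA6 had 906 and 889 CPM in shFTO against 1440 and 1413 CPM in scramble, 1.59-fold lower (1.57 to 1.61). The groups of each were far apart. PDIA5 had 91.1 and 96.3 CPM in shFTO against 154 and 150 CPM in scramble, 1.62-fold lower (1.56 to 1.69), and some of its reads could belong to SEC22A, whose annotated exons overlap it on the same strand. PDIA3 (ERp57), the isomerase that works with the lectin chaperones, lay just inside the 1.5-fold threshold at 1.49-fold lower (1.46 to 1.51), and PDIA4 was 1.36-fold lower (1.35 to 1.38). PDIA3 has processed pseudogenes in the tables that could take some of its reads.

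The lectin chaperones, which retain glycoproteins until they are folded, moved less. CALR (calreticulin), the luminal one, had 2382 and 2390 CPM in shFTO against 2956 and 2975 CPM in scramble, 1.24-fold lower (1.23 to 1.25). CANX (calnexin), its membrane-bound relative, had 1497 and 1480 CPM in shFTO against 1651 and 1650 CPM in scramble, 1.11-fold lower (1.10 to 1.12), a direction that flips with plain library size. Reads of HSPA5 per read of CANX were 1.15 and 1.16 in the shFTO tables against 1.41 and 1.40 in the scramble tables. HSPA5 and CANX therefore shifted by different amounts between shFTO and scramble, whatever the scaling.

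The J-domain proteins, which deliver clients to HSPA5 and stimulate its ATPase, spread from DNAJB9 to DNAJC3. DNAJB9 (ERdj4), a classic target of spliced XBP1, had 16.2 and 17.8 CPM in shFTO against 25.6 and 24.6 CPM in scramble, 1.48-fold lower (1.34 to 1.63). DNAJB11 was 1.16-fold lower (1.13 to 1.18). DNAJC3 (p58IPK), an inhibitor of eIF2 kinases, had an interval that spans 1 (1.04-fold lower, 0.982 to 1.10).

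Small ER stress-responsive proteins differed among themselves. CRELD2 had 52.5 and 51.3 CPM in shFTO against 70.4 and 70.8 CPM in scramble, 1.36-fold lower (1.29 to 1.44). MANF, a secreted neurotrophic factor retained in the ER, had 142 and 139 CPM in shFTO against 143 and 142 CPM in scramble, and SDF2L1, a partner of DNAJB11, had 41.1 and 40.4 CPM in shFTO against 41.4 and 40.8 CPM in scramble. The intervals of MANF (1.02-fold lower, 0.981 to 1.06) and SDF2L1 (1.01-fold lower, 0.941 to 1.08) span 1 and do not reach the 1.35-fold of HSPA5. ERO1B, an oxidase of the isomerases, had 101 and 114 reads in shFTO against 77 and 84 in scramble, and its interval also spans 1 (1.18-fold higher, 0.955 to 1.45).

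ER-associated degradation, which returns misfolded proteins to the cytosol for the proteasome, was split. HERPUD1 (ENSG00000051108), a scaffold of the degradation complex and a target of both the ATF6 and ATF4 arms, had 47.6 and 49.0 CPM in shFTO against 86.7 and 88.6 CPM in scramble. It was 1.82-fold lower (1.72 to 1.92), the furthest below scramble of the 34 genes. SYVN1 (HRD1), the ubiquitin ligase, had 34.9 and 40.0 CPM in shFTO against 65.0 and 66.2 CPM in scramble, 1.75-fold lower (1.64 to 1.86). Its log2 ratio of -0.81 became -0.71 without the first shFTO table and -0.92 without the second, both outside the counting interval. Some of its reads could belong to the overlapping genes FAU and MRPL49. SEL1L, the adaptor of SYVN1, had 195 and 202 CPM in shFTO against 158 and 156 CPM in scramble, 1.26-fold higher (1.22 to 1.31). EDEM1, which marks glycoproteins for degradation, was 1.19-fold higher (1.11 to 1.28). The ligase and its adaptor lay on opposite sides of 1, and none of these 4 genes changed sign under the 4 scalings.

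Among regulators, the mRNA of XBP1 stood lower while the sensors stood close to scramble. XBP1 (ENSG00000100219) had 285 and 286 CPM in shFTO against 409 and 409 CPM in scramble, 1.43-fold lower (1.40 to 1.47). Reads of XBP1 per read of ATF6 were 5.52 and 5.89 in shFTO against 7.51 and 7.24 in scramble. CREB3L2, a membrane-bound factor related to ATF6, was 1.17-fold lower (1.12 to 1.21). ATF6 had 51.7 and 48.5 CPM in shFTO against 54.4 and 56.5 CPM in scramble, 1.11-fold lower (1.04 to 1.18), a direction that flips with plain library size. The intervals of ERN1 (1.12-fold lower, 0.927 to 1.36), EIF2AK3 (1.05-fold lower, 0.960 to 1.14) and EIF2AK4 (log2 ratio -0.0038, 0.961 to 1.05 as a fold lower) span 1. ERN1 held only 117 and 102 reads in shFTO and 90 and 127 in scramble, so its counts could not show a shift as small as that of ATF6.

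In the ATF4 branch NUPR1 was the gene furthest from scramble. NUPR1 (ENSG00000176046), a small chromatin-associated stress cofactor, had 90.7 and 93.4 CPM in shFTO (1942 and 2052 reads) against 20.4 and 21.6 CPM in scramble (386 and 417 reads). The groups were far apart, with a fold of 4.38 higher in shFTO (4.06 to 4.73). ATF4 itself had 375 and 370 CPM in shFTO against 369 and 371 CPM in scramble, so the groups overlapped, and the fold was 1.01 (0.983 to 1.03). TRIB3, a pseudokinase induced by ATF4 and CHOP, had 123 and 121 CPM in shFTO against 101 and 103 CPM in scramble, 1.19-fold higher (1.15 to 1.25).

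The other ATF4 branch genes were within 1.5-fold or lower. ASNS, asparagine synthetase and a standard amino acid response gene, had 21.2 and 21.4 CPM in shFTO against 20.7 and 21.2 CPM in scramble, with overlapping groups and a fold of 1.02 (0.923 to 1.12). The intervals of ATF5 (1.03, 0.967 to 1.10) and of DDIT3 (CHOP), the death-linked factor (1.14, 0.987 to 1.33), also span 1. The exons of ATF5 and DDIT3 overlap other genes on the opposite strand, and ATF4 and ASNS have pseudogenes in the tables. Such opposite-strand overlaps also exist for the folding genes HSP90B1, PDIA3, PDIA6, P4HB, CALR, CANX, DNAJB9, DNAJB11, CRELD2 and HYOU1. XBP1 has a pseudogene in the tables too. PPP1R15A (GADD34), which brings phosphatase to eIF2 and so ends the response, had 31.2 and 32.7 CPM in shFTO against 49.1 and 49.2 CPM in scramble, 1.54-fold lower (1.43 to 1.65). CHAC1, a glutathione-degrading target of this branch, had 0 reads in all 4 tables, which allows up to 0.0692 CPM in shFTO and 0.0785 CPM in scramble by counting error alone.

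**Figure D2:**
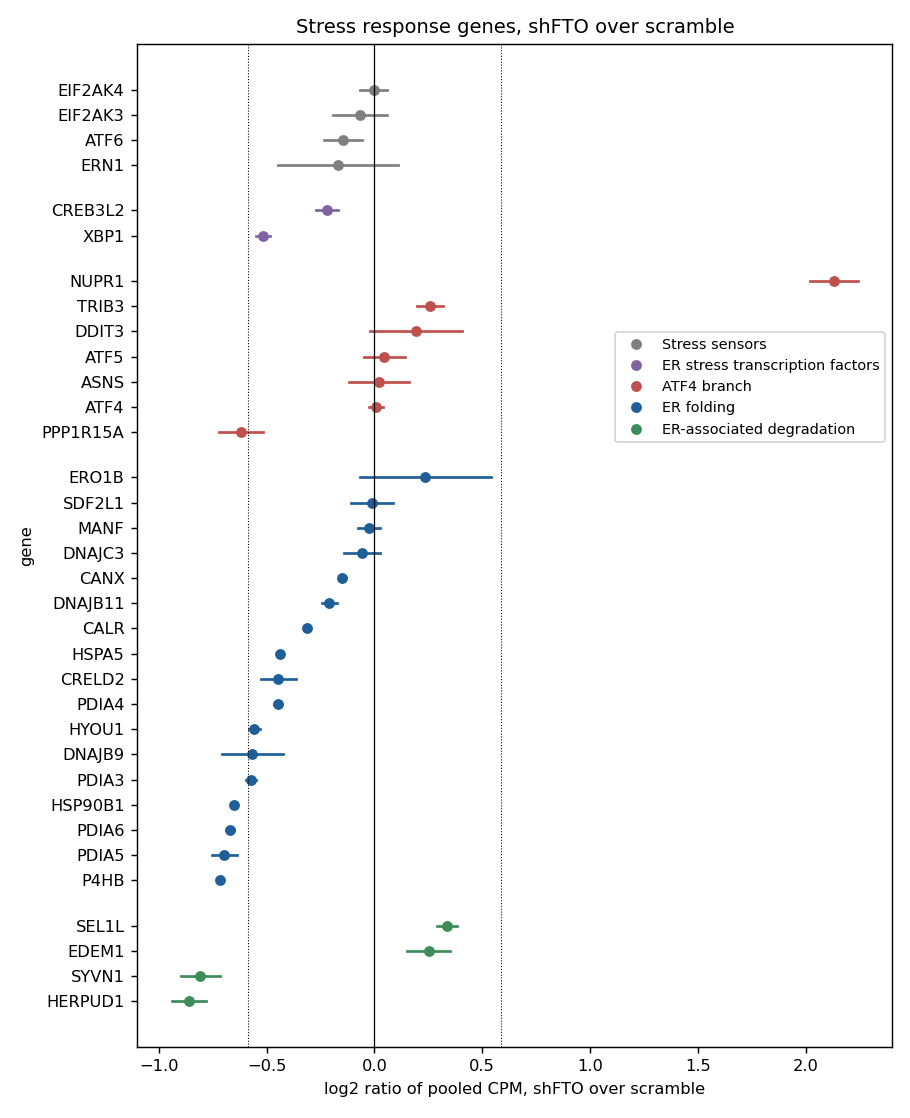
Log2 ratio of pooled CPM, shFTO over scramble (horizontal axis), for the 34 measured genes (rows) by role, with 95% counting intervals as bars and 1.5-fold marked by dotted lines. NUPR1 lies at 2.13, and 16 of 17 ER folding genes lie below 0 (12 with plain library size, not drawn). HERPUD1 and SYVN1 lie at -0.86 and -0.81 opposite SEL1L and EDEM1 at 0.34 and 0.25.

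The promoters hold the letters by which the ER branch is known. The ER stress response element (ERSE), bound by ATF6 with the factor NF-Y, was searched on both strands as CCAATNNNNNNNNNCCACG, and its shorter form ERSE-II as ATTGGNCCACG, in windows from 250 bases before to 50 bases after each RefSeq start site (GRCh38.p14, 33 of the 35 genes). ERSE was found in 8 of these 33 genes, against 0.0916% of 27305 genes, and ERSE-II in 3, against 0.0696%. By windows the shares were 0.0769% and 0.0541% of 35116. The sequences below are shown because they carry these matches in genes at different points of the response. Capitals mark the fixed letters of each match, and all run 5′ to 3′ on the gene's strand.
HSPA5: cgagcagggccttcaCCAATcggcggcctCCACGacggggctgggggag
HSP90B1: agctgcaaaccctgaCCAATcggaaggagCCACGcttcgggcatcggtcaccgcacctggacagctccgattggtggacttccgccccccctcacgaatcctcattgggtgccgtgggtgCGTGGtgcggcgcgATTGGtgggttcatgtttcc
PDIA6: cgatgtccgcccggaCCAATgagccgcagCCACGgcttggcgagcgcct
XBP1: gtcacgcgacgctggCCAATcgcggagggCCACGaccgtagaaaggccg
HERPUD1: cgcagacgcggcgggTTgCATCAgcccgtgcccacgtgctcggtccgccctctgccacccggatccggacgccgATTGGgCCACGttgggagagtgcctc
SDF2L1: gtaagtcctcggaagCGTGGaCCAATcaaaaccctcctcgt
ASNS: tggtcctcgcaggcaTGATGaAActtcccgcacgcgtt

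These stretches lie at chr9:125241376-125241424 on the minus strand for HSPA5, chr12:103930201-103930354 on the plus strand for HSP90B1, chr2:10812838-10812886 on the minus strand for PDIA6 and chr22:28800588-28800636 on the minus strand for XBP1. Those of HERPUD1, SDF2L1 and ASNS lie at chr16:56931951-56932050 (plus), chr22:21642099-21642139 (plus) and chr7:97872454-97872491 (minus). All lie upstream of a start site in RefSeq for GRCh38.p14. HSPA5, PDIA6 and XBP1 hold 1 exact ERSE match each within 86 bases of the start. HSP90B1 holds 2 in opposite orientations, and SDF2L1 and HERPUD1 hold an exact ERSE-II match each. Only exact matches were searched, so imperfect copies in these or other windows were not counted. The capitals before the ERSE-II of HERPUD1 and those of ASNS are the core of the C/EBP-ATF response element (CARE), bound by ATF4, searched as TGATGNAA.

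The ERSE-type matches fell by role. They occur in 9 of 16 ER folding genes with a promoter window, in XBP1 and in HERPUD1, and in none of the 7 ATF4 branch genes with a window. The 11 measured genes with an ERSE or ERSE-II had a median log2 ratio of -0.45, from 0.24 for ERO1B to -0.86 for HERPUD1, and 10 of the 11 lay below 0. The 21 measured genes with a window and neither motif had a median of -0.066, with 14 below 0. These sets differ in role: 9 of the 11 are ER folding genes, whereas the 21 also include sensors, ATF4 branch and degradation genes. Within the ER folding group, genes without a match ran from P4HB (-0.72) to MANF (-0.025). Those with a match ran from PDIA6 (-0.67) to ERO1B (0.24), so the medians above do not separate motif from role. The match did not separate the genes one by one: SDF2L1 with ERSE-II (-0.011) and CANX with ERSE (-0.15) stood near scramble, while P4HB, PDIA5 and SYVN1 have no match in their windows and lay between -0.70 and -0.81. CARE was found in 4 of the 33 genes (ASNS, CHAC1, HERPUD1 and CREB3L2), against 4.46% of all genes, and the XBP1 and ATF6 core TGACGTGG in HYOU1 alone, where it overlaps an ERSE-II, against 0.927%. The genes were listed for their membership of these pathways, so these counts describe them and test nothing.

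**Figure D3:**
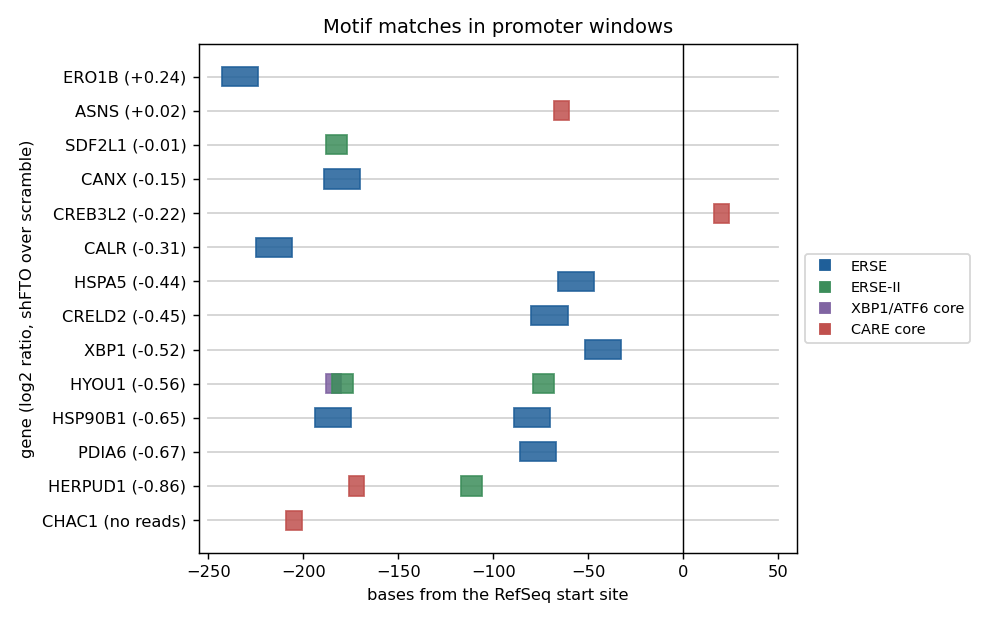
Positions of ERSE, ERSE-II, XBP1/ATF6 core and CARE core matches (coloured blocks) relative to the RefSeq start site (horizontal axis, bases), for the 14 genes with a match, ordered by log2 ratio of shFTO over scramble. For CANX, which has several starts, the window of the last start is drawn. The ERSE-type matches drawn are upstream of the start and occur from ERO1B at 0.24 to HERPUD1 at -0.86.

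Genes of higher level tended to have lower ratios, most clearly above 1000 CPM. Per length of annotated exon, CALR stood highest of the 34 genes at 879 CPM per kilobase in shFTO and 1093 in scramble, and HSP90B1 followed at 463 in shFTO and 727 in scramble. HSPA5 had 439 CPM per kilobase in shFTO and 595 in scramble, against 0.465 in shFTO and 0.522 in scramble for ERN1, the lowest of the 34. Over the 34 genes the log2 ratio was negatively related to the level in CPM (Spearman -0.40, all points sharing the same libraries). The 7 of these genes whose mean level reached 1000 CPM all belong to the folding group, with a median log2 ratio of -0.45, but the 91 genes of that abundance in the whole table had a median of -0.37. Between 100 and 1000 CPM, by contrast, the 5 folding genes had a median of -0.56 against -0.053 over 2064 genes. With trends on length and expression removed, an alternative added after the data were seen, the folding median was -0.15 and the difference from the ATF4 branch -0.38. HSPA5 then stood at -0.12 and P4HB at -0.43, whereas HERPUD1 (-0.83), SYVN1 (-0.79) and NUPR1 (2.15) hardly moved. CALR (0.086), CANX (0.072), MANF (0.15) and SDF2L1 (0.16) changed from below 0 to above it.

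**Figure D4:**
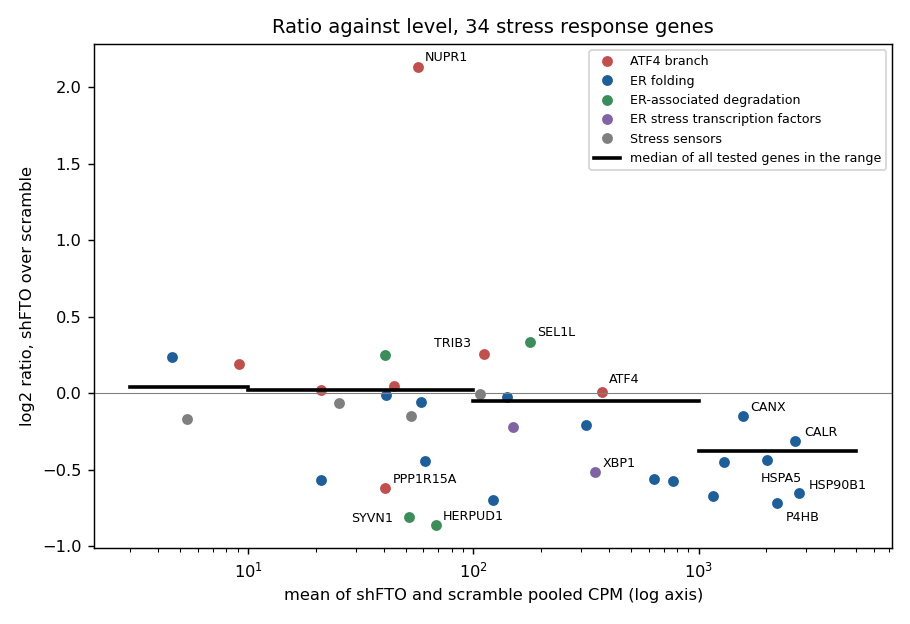
Log2 ratio of shFTO over scramble (vertical axis) against mean level in CPM (horizontal log axis) for the 34 measured genes by role, with the median of all genes in each abundance range as black lines. The 7 genes above 1000 CPM lie around the -0.37 median of their range, while HERPUD1, SYVN1, PPP1R15A and NUPR1 lie far from the median near 0 of theirs.

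The wider pathway was covered by 7 further lists of 111 genes. Of the 108 measured, 22 (20.4%) were at least 1.5-fold lower, against 13.4% of all genes, and 2 (1.85%) at least 1.5-fold higher, against 11.4%. With upper quartile scaling 15 were lower by that much, and with plain library size 10 were lower and 5 higher. The shares of all genes are those with TMM factors, and plain library size moved the median of all genes up by 0.17. All 18 genes for translocation and glycosylation, which bring proteins into the ER and attach sugars, lay below scramble (median -0.41), except that STT3B flips with plain library size. By at least 1.5-fold 5 of them (27.8%, against 13.4% of all genes) were lower, 3 with upper quartile scaling and 2 with plain library size. SEC61G, a subunit of the translocation channel, had 50.4 and 47.7 CPM in shFTO against 92.5 and 94.0 CPM in scramble, 1.90-fold lower (1.80 to 2.01), SEC63 was 1.71-fold lower (1.65 to 1.77) and OSTC 1.55-fold lower (1.502 to 1.61).

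Of 18 other ER folding genes 17 lay below scramble (16 with upper quartile scaling and 14 with plain library size), with a median of -0.35. By at least 1.5-fold 6 of them (33.3%, against 13.4% of all genes) were lower, but 2 with either of those scalings. FKBP14, a prolyl isomerase, was 2.09-fold lower (1.94 to 2.26), HSPA13 1.80-fold (1.70 to 1.91) and the calcium-binding protein CALU 1.55-fold (1.52 to 1.58). Of 13 further degradation genes 9 lay below scramble (7 with plain library size). By at least 1.5-fold 2 (15.4%) were lower, a share near the 13.4% of all genes, and 0 with plain library size. The 2 genes were SELENOS (1.62-fold, 1.53 to 1.72) and ERLEC1 (1.58-fold, 1.52 to 1.64). Among 9 measured genes for ATF6 processing and its relatives, CREB3L3 (CREBH), a liver factor cut like ATF6, had 7.56 and 6.47 CPM in shFTO against 23.4 and 23.2 CPM in scramble. It was 3.33-fold lower (2.92 to 3.80), and the KDEL receptor KDELR2, which retrieves escaped chaperones, was 1.53-fold lower (1.49 to 1.57).

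ATF4 targets outside the listed branch lay on both sides of scramble. Of 27 measured, 7 (25.9%, against 13.4% of all genes) were at least 1.5-fold lower and 2 (7.41%, against 11.4%) at least 1.5-fold higher, with a median of -0.26. With plain library size 5 were lower by that much and the median was -0.096. SLC38A2, an amino acid transporter, had 596 and 594 CPM in shFTO against 1194 and 1210 CPM in scramble, 2.02-fold lower (1.99 to 2.05). GDF15, a stress hormone, was 2.15-fold lower (2.07 to 2.24) and the factor CEBPB 1.99-fold lower (1.89 to 2.101). VLDLR, a lipoprotein receptor, was 1.84-fold higher (1.60 to 2.13) and SLC7A5, a large neutral amino acid transporter, 1.54-fold higher (1.51 to 1.57). Neither the 12 tRNA synthetases (median 0.098) nor the 11 other genes of eIF2 control (median 0.013) had a member past 1.5-fold in either direction, although with plain library size 2 and 1 of them were higher by that much.

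Most cytosolic and mitochondrial heat shock genes lay above scramble, but not the most abundant one. Of 14 measured, 12 lay above (13 with plain library size), with a median of 0.43, against -0.45 for the ER folding genes. By at least 1.5-fold 4 (28.6%, against 11.4% of all genes) were higher and 0 lower, and with plain library size 7 were higher. HSP90AB1, the constitutive cytosolic HSP90, named after its values were seen, had 4399 and 4405 CPM in shFTO against 5498 and 5476 CPM in scramble, 1.25-fold lower (1.24 to 1.25). The mitochondrial chaperonin partners, also named after their values were seen, were split, with HSPE1 1.37-fold higher and HSPD1 1.12-fold lower, the second a direction that flips with plain library size. The summed level of the 14 genes was 1.02-fold that of scramble. DNAJB1, the heat-inducible HSP40, had 261 and 261 CPM in shFTO against 141 and 142 CPM in scramble, 1.84-fold higher (1.78 to 1.90). HSPH1 was 1.65-fold higher (1.60 to 1.71) and HSPA1B 1.54-fold higher (1.46 to 1.62), the last with a near-identical copy in HSPA1A that can share its reads.

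**Figure D5:**
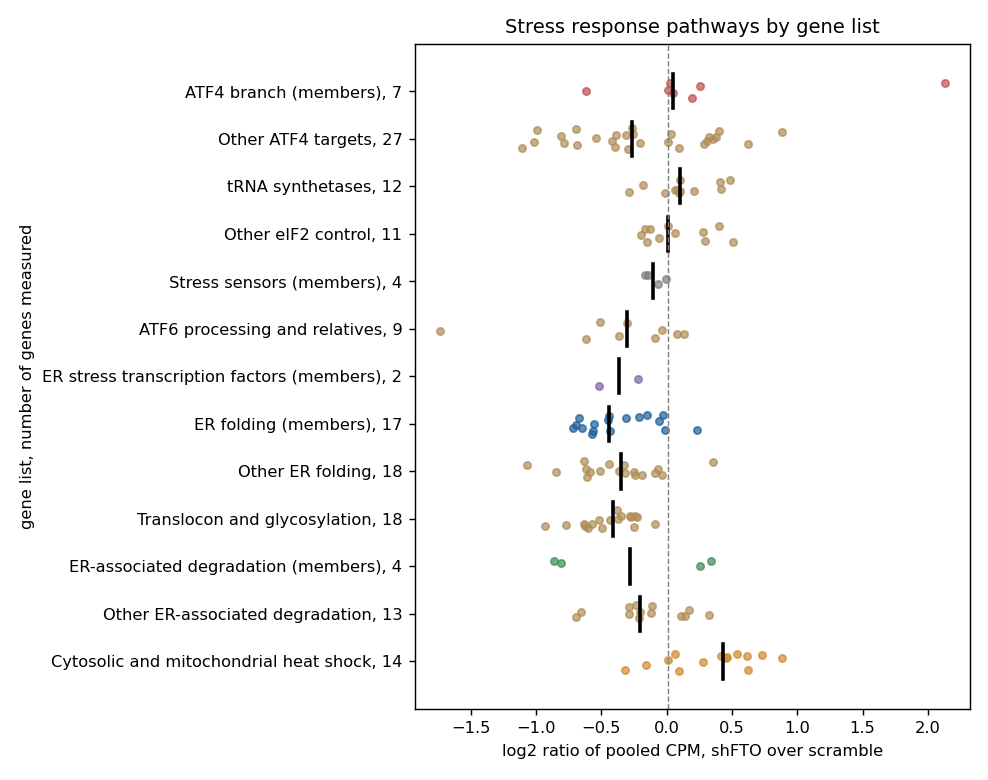
Log2 ratio of shFTO over scramble (horizontal axis) for each measured gene (points, spread vertically for clarity) of 13 gene lists, with list medians as black bars and the median of all genes as a dashed line. ER folding, translocon and glycosylation genes lie mostly below 0 and heat shock genes mostly above it, with medians of -0.45, -0.41 and 0.43.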

How the data were processed

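The values deposited are the authors' unnormalized counts of reads for each Ensembl identifier. TopHat2 2.1.1, HTSeq 0.6.0 and hg19 are named in the submitters' processing notes, and the strand setting and annotation release are not given in the sources used here, so reads of overlapping, antisense or near-identical genes cannot be told apart. Symbols came from a gene name table and, where it had none, from GENCODE v29 (51537 of 62893 identifiers in all), which also gave exon lengths and is of another build, so no gene coordinates are given. RefSeq promoter windows (GRCh38.p14) have their own coordinates.

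Sample titles gave the group and the replicate number. The tables of each group were set against each other with a chi-square test (genes with at least 20 reads) and then summed. A fold is the ratio of summed CPM, scaled by TMM over genes kept by filterByExpr, with an exact 95% Clopper-Pearson interval on the split of reads. With 1 sample per group a call means past 1.5-fold or 2-fold. No molecular identifiers are described, so intervals cover counting error only. edgeR 4.0.16 (quasi-likelihood, no covariate, Benjamini-Hochberg adjusted p under 0.05) was fitted to the 4 tables in R 4.3.3. DESeq2 1.42.0, other scalings and filters, the replicate block and single tables left out were alternatives, and trends on length and expression were removed with mgcv 1.9.3 as an added one. The fits were tested on simulated data.

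The genes and lists were chosen with earlier results of these data known. In each further list the text names up to 3 genes each way with a mean of at least 5 CPM and the largest fold past 1.5.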

Additional observations from a re-analysis of the deposited data

How the results depend on the processing

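Scaling shifts all ratios together. With upper quartile scaling the median log2 ratios were -0.14 over the 34 genes, -0.40 for ER folding and 0.093 for the ATF4 branch. With plain library size they were -0.021, -0.28 and 0.21, and 2 genes were at least 1.5-fold lower. There edgeR called 14 higher and 15 lower, with 9751 of all 13767 genes called in either direction. No gene past 1.5-fold changed sign in these settings. At a 2-fold threshold 0 genes were lower. With length and expression trends removed the medians were -0.12, -0.15 and 0.23, the difference between ER folding and the ATF4 branch was -0.38 and 3 genes were at least 1.5-fold lower. Leaving out each table in turn gave 6 to 8 genes at least 1.5-fold lower, 1 higher in each case, medians of -0.23 to -0.17 over the 34 genes, -0.45 to -0.44 for ER folding and 0.016 to 0.068 for the ATF4 branch, a difference of -0.51 to -0.46 and -2.48 to -2.35 for FTO. DESeq2 on all tables called 4 higher and 18 lower, with 6880 of 13767 genes called in either direction. Whether the replicate numbers pair the tables could not be decided, because tables of a group differed only by sampling noise (correlation of deviations 0.017). With the replicate block edgeR again called 4 higher and 19 lower, with 9222 of 13767 genes called in either direction. Genes under about 10 CPM, such as ERN1, ERO1B and DDIT3, are limited by depth.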

Other observations

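Beyond the 35 genes, 19 other genes with enough reads hold an ERSE or ERSE-II in their RefSeq promoter window, a set picked by sequence after the data were seen. Their median log2 ratio was -0.10, with 11 below 0 and 8 above. NUCB1, a Golgi calcium-binding protein, stood at 136 CPM in shFTO against 248 CPM in scramble, 1.83-fold lower, and SERP1, a translocon-associated stress protein, at 166 CPM in shFTO against 220 CPM in scramble, 1.33-fold lower. ALG12, an ER mannosyltransferase whose exons overlap CRELD2 on the opposite strand, stood at 24.9 CPM in shFTO against 24.1 CPM in scramble, while CRELD2 was 1.36-fold lower. SYNPO, an actin-associated gene with an ERSE match, was 20.2-fold higher, at 15.8 CPM in shFTO against 0.785 CPM in scramble.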
